A study of Mus musculus with 6 samples.

Results

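Mouse genes whose symbol ends in -ps or -ps with a number are named pseudogenes, and the stem of the symbol names the gene they were copied from. Of the 14986 genes in the table, 267 carry this ending, and 222 of them have their parent gene in the table as well. These 222 copies of 99 parents are described here. The choice used the symbols and no measured value.

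The libraries were made from polyadenylated RNA of long-term haematopoietic stem cells (LT-HSC) of mouse bone marrow, with 3 libraries labelled Zcchc8 KO and 3 labelled wild type (WT). Each came from 1500 sorted cells and 500 pg of amplified cDNA. The labels give no strain, age, sex or way of deleting the gene, and they do not tie the replicates to different animals. The p-values therefore measure the spread between these libraries, which may be technical. ZCCHC8 is a core protein of the nuclear exosome targeting complex. This complex brings short-lived nuclear RNA to the RNA exosome for decay, and the study compared libraries labelled as lacking ZCCHC8 with WT ones. The libraries labelled KO were not lower in Zcchc8, which stood at 10.4, 5.54 and 5.92 FPKM in KO and 8.93, 5.24 and 5.16 FPKM in WT (exact two-sided permutation p = 0.5). The table thus does not check the labels, and KO means the libraries labelled so throughout.

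A processed pseudogene arises when a spliced mRNA is copied into DNA and inserted elsewhere in the genome. The copy therefore lacks the introns of its parent, usually has no promoter of its own, and collects mutations with time. Highly expressed housekeeping genes, above all those of ribosomal proteins, have left the most copies in mammalian genomes. Bowtie2 aligns each read in 1 piece. A read from an exon junction then has no continuous match in the parent gene, but has one in an intronless copy. The sources used here give neither the counting of reads with several equal matches nor the use of strand. RNA made from a copy thus cannot be told apart from its parent's mRNA in the level listed for the copy. In bulk libraries, fewer cells of a type and less RNA per cell cannot be told apart either.

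The sequences at a splice junction show how close the copies are to the mRNA. For each family below, 90 bases of the parent's spliced coding sequence around 1 junction are shown, with the last base of one exon and the first base of the next in capitals. The same stretch of the copies chosen for display follows, with capitals at the bases that differ from the parent. All are from GENCODE M21 transcripts on GRCm38, the assembly of mm10, and are given 5′ to 3′ on the strand of the gene. The junction is the one that the most copies compared span, and among equals the one with the most differences. The copies compared are those shown, and for Rps19 also Rps19-ps7 and Rps19-ps9. These differ from the Rps19 window at 4 bases each and are not shown. Rps15a encodes a protein of the small ribosomal subunit, and its window joins chr7:118109933-118109977 to chr7:118109149-118109193 on the minus strand. Rps15a-ps7 (chr2:152185340-152185429, minus strand) and Rps15a-ps5 (chr5:105797370-105797459, minus strand) match it at every base. Rps15a-ps3 (chr4:150847369-150847458, plus strand) differs at 1 base, Rps15a-ps2 (chr19:28742208-28742297, minus strand) at 7 and Rps15a-ps8 (chr4:53791113-53791202, minus strand) at 8.
Rps15a: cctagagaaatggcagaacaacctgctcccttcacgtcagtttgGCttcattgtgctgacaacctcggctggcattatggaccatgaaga
Rps15a-ps7: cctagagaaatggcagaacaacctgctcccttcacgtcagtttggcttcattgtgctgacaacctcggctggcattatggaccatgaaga
Rps15a-ps5: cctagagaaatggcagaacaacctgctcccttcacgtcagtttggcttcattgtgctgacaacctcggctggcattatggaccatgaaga
Rps15a-ps3: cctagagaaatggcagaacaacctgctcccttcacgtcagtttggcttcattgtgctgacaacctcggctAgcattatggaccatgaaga
Rps15a-ps2: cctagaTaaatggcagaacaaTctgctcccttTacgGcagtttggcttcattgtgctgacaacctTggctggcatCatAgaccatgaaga
Rps15a-ps8: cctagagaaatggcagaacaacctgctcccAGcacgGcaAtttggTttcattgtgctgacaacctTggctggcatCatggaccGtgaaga

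Rps19, also of the small subunit, is shown because its copy Rps19-ps6 (chr12:110898425-110898514, plus strand) had the highest level of all 222 copies. The parent window joins chr7:24888421-24888465 to chr7:24888907-24888951 on the plus strand. Rps12-ps3 (chr19:59322457-59322546, plus strand), Rps12-ps24 (chr8:36025839-36025928, plus strand) and Rps12-ps19 (chr11:75071038-75071127, minus strand) are set against Rps12, whose window joins chr10:23786764-23786808 to chr10:23785960-23786004 on the minus strand, because they are copies of 1 parent at very different levels; they are 3 of its 16 copies, and Rps19-ps6 is 1 of 11. Gmfg-ps (chr6:4893636-4893725, minus strand) and Psma5-ps (chr10:85314172-85314261, plus strand) are among the copies with the smallest p between KO and WT. The Gmfg window joins chr7:28441486-28441530 to chr7:28441669-28441713, and the Psma5 window joins chr3:108272333-108272377 to chr3:108279735-108279779, both on the plus strand.
Rps19: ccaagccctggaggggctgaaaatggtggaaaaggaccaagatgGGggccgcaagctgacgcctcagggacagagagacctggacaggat
Rps19-ps6: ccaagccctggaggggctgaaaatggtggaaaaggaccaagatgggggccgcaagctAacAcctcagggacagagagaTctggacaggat
Rps12: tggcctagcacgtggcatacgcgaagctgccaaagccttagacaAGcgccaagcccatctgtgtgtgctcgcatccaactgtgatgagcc
Rps12-ps3: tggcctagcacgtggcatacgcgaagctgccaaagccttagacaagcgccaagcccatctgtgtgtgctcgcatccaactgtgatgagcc
Rps12-ps24: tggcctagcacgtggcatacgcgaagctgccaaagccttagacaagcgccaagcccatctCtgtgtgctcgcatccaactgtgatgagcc
Rps12-ps19: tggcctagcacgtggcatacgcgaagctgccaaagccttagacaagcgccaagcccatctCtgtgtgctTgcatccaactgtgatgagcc
Gmfg: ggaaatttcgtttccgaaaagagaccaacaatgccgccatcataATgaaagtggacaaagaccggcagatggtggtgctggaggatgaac
Gmfg-ps: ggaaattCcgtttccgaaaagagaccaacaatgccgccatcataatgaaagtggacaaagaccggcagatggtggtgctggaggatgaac
Psma5: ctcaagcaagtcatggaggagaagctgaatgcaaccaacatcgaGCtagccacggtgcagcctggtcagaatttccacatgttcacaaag
Psma5-ps: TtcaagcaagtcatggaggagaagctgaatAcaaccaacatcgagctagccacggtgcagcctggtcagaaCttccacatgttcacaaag

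The annotation bore out the name for most copies. GENCODE lists 187 as processed pseudogenes and 14 as transcribed processed pseudogenes. It lists 10 as protein coding, namely Atg4a-ps, Ftl1-ps1, Nutf2-ps1, Rpl10-ps3, Rpl36a-ps1, Rpl9-ps6, Rps12-ps3, Rps18-ps5, Srsf3-ps and Zfp968-ps. A further 2 are unprocessed pseudogenes, 1 is a transcribed unprocessed pseudogene and 1 a processed transcript, and 7 symbols were not matched to an annotated gene. A single exon was annotated for 203. Of the 215 with a sequence, 213 aligned to an mRNA of the parent, with a median identity of 97.7% and a range of 79.5% to 100%. The alignment ran over at least 90% of the copy in 209, and in 211 it spanned at least 1 exon junction of the parent, with a median of 4 junctions and up to 29. Rpl17-ps11 and Rpl18-ps1 did not align to the gene they are named after. The copies lie on 21 chromosomes, with 26 on chromosome X. Another gene was overlapped without any shared exon base by 58, which for copies of several exons need not mean lying in its intron.

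Ribosomal protein genes were the parents of 158 copies. The largest families were those of Rps12 with 16 copies, Rps19 and Rpl21 with 11 each, Rpsa with 10, and Rps2 and Rpl19 with 9 each. At the other end, 65 parents had 1 copy in the table. The parents outside the ribosome included enzymes and chaperones with 7 copies, proteasome and ubiquitin genes with 6, and actin and tubulin cytoskeleton genes and RNA-binding or splicing genes with 3 each.

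Levels were compared in FPKM, which is per length of the gene, as means over the 6 libraries. That length takes in all annotated exons, 4685 bases for Rps19 against 438 aligned for its copy Rps19-ps6. Ratios of FPKM between copy and parent are therefore not ratios of reads. The copy was listed above its parent in 121 of 222 cases, and in 114 of these the order held in all 6 libraries; in 90 cases the copy was below its parent in all 6. The median ratio of copy to parent was 1.59, with 60 copies at 10 times the parent or more and 17 at 100 times or more. A level of at least 1000 FPKM was reached by 32 copies, against 1 of the 99 parents (Ubb, a ubiquitin gene, at 1357 FPKM) and 93 of all genes. Among the 50 genes with the highest FPKM of the table, 17 were copies and 0 were parents. For 76 of the 99 parents at least 1 copy stood above the gene itself.

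**Figure D1:**
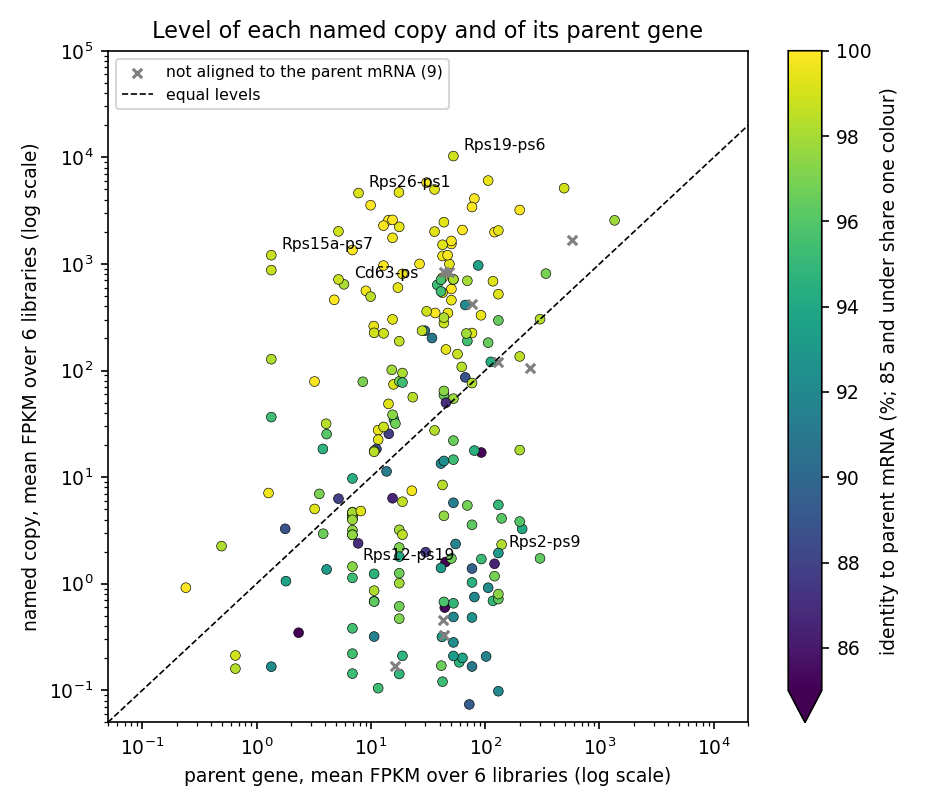
Each point is 1 of the 222 named copies, with the mean FPKM of its parent on the horizontal axis and its own on the vertical axis, both on log scales and over all 6 libraries, coloured by identity to the parent mRNA, with crosses for the 9 copies that were not aligned. The points above the dashed line of equal levels, 121 in all, are mostly the copies of high identity, and Rps19-ps6 is the highest.

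The 6 copies of highest mean FPKM were all of ribosomal proteins. Rps19-ps6 stood at 10456, 10019.6 and 9677 FPKM in KO libraries 1 to 3, against 10433, 10103 and 10954 FPKM in WT libraries 1 to 3, and the groups overlapped. Its parent Rps19 stood at 53.6, 49.5 and 48.5 FPKM in KO and at 57.5, 49.5 and 58.0 FPKM in WT. Over all libraries the copy was 195 times as high in FPKM. The next were Rpl13-ps6 with a mean of 6057 FPKM, Rpl3-ps1 with 5798, Rpl14-ps1 with 5138, Rps18-ps3 with 4999 and Rps7-ps3 with 4694. Rpl3-ps1 differs from the Rpl3 mRNA at 2 of 1210 aligned positions and was 188 times as high in FPKM as Rpl3, which encodes a protein of the large subunit. Rps18-ps3 was the only one of these 6 whose groups did not overlap, at 5440.3, 5022 and 4992 FPKM in KO and 4876, 4757 and 4909 FPKM in WT, with a limma adjusted p of 0.592.

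The ratios of copy to parent in FPKM were highest for Rps15a-ps7 at 897, Rps15a-ps5 at 650.2 and Rps26-ps1 at 593, among parents with a mean of at least 1 FPKM. Rps15a has 6270 bases of annotated exons, against 393 aligned for Rps15a-ps7, and this length enters the ratio. Rps26-ps1 stood at 4756, 4780.3 and 4772 FPKM in KO, against 4092, 4692 and 4661 FPKM in WT. Rps26, a small-subunit protein gene, was at 9.42, 12.1 and 3.79 FPKM in KO and 3.48, 12.6 and 5.41 FPKM in WT, which overlap. Reads on the copies made up more than 50% of the reads of copies and parent together in every library for 56 of the 99 families, counted as reads and thus not per length. Copies not matched to an annotated gene had no recovered reads and counted as 0. The families of Eef1a1, Lamtor3 and Rps15 had no other copy and so could not be among the 56. Of these, Eef1a1-ps1 had a mean of 1686 FPKM and Eef1a1 574 FPKM. For Cd63 and its 1 copy the share on the copy was 94.9% to 97.2%, and for Rps15a it was 98.4% to 99.6%.

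Copies of at least 98% identity to the parent mRNA were listed highest. The median was 2.83 FPKM in the 16 copies under 90% identity, 1.30 in the 40 from 90% to 95%, 4.08 in the 63 from 95% to 98%, 135.6 in the 39 from 98% to 99% and 966 in the 55 from 99% to 100%. Of those 55, 53 were above their parent. Across the 213 aligned copies the Spearman correlation of identity with mean FPKM was 0.66 and with the ratio to the parent 0.70, against 0.06 for exon length and 0.11 for GC content with mean FPKM; copies of 1 parent are not independent, and all share the same 6 libraries. All 14 copies identical to their parent over the aligned stretch stood above it, with a median of 1764 FPKM. Within families only the highest copy was compared, not the order below it. In 19 of the 21 families with at least 3 aligned copies it was also the most identical, with Rpl10 and Rpl17 as the exceptions.

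**Figure D2:**
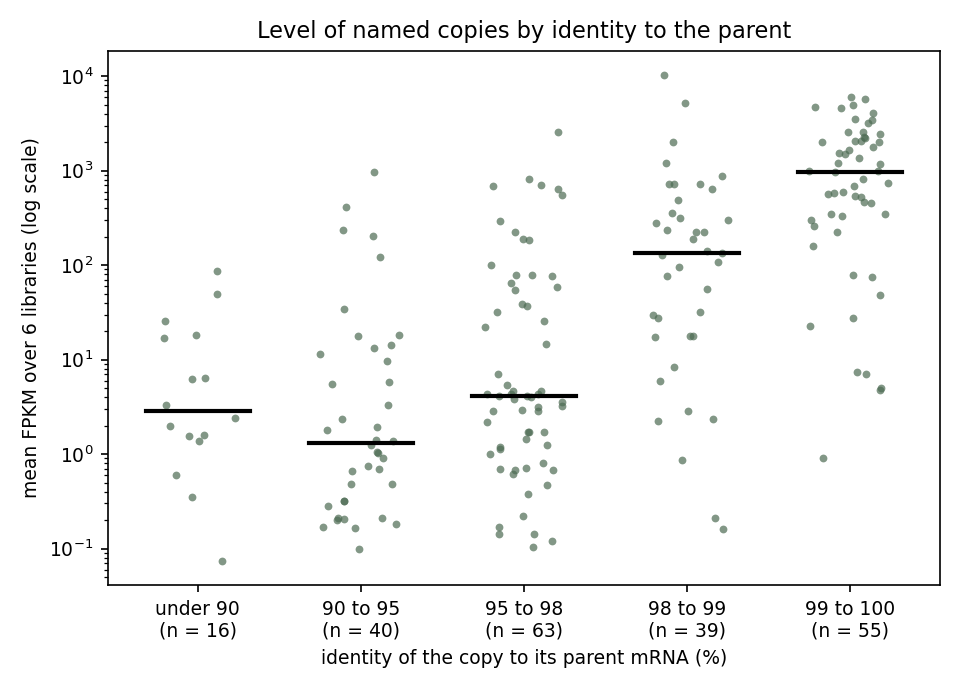
Each point is 1 of the 213 aligned copies, grouped by identity to the parent mRNA in percent, with mean FPKM over 6 libraries on a log scale, horizontal spread within a group being random and black lines the medians. The median is 966 FPKM in the group from 99% to 100% and 1.30 FPKM in the group from 90% to 95%, and each group spans at least 3 powers of 10.

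The windows printed above showed the same order in the Rps15a family. The 2 copies with no difference in the window had means of 1208 FPKM (Rps15a-ps7) and 876 FPKM (Rps15a-ps5). The copy with 1 difference, Rps15a-ps3, had 128 FPKM, Rps15a-ps2 with 7 had 36.6 FPKM and Rps15a-ps8 with 8 had 0.167 FPKM. The 3 Rps12 copies shown were picked for their levels and add nothing to that order. Rps12-ps3, with the window of Rps12, had a mean of 1350.1 FPKM, Rps12-ps24 with 1 difference had 9.71 FPKM, and Rps12-ps19 with 2 had 1.45 FPKM, which rests on 1 KO library at 7.56 FPKM. Over the whole stretch aligned to Rps12 the identities ran the other way, at 94.4% for Rps12-ps24 and 97.25% for Rps12-ps19. The 12 Rps12 copies on chromosome X hold 6 distinct sequences, and the 10 of them at 1 FPKM or more lay between 1.13 and 4.70 FPKM. Copies that overlapped another gene without a shared exon base had a median of 111 FPKM and the rest 18.2 FPKM.

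Between KO and WT, none of the 181 copies tested, those with a mean of at least 1 FPKM, passed the threshold of 0.05 on the adjusted p of limma, a linear model fitted over all 11837 tested genes on log2(FPKM + 1). Over all tested genes 27 passed, or 0.228%, with 0.177% higher and 0.0507% lower in KO. At an unadjusted p under 0.05 there were 15 copies, 13 higher and 2 lower in KO, which is 8.29% of the copies and compares with 9.2% of all tested genes (4.87% higher and 4.33% lower). With limma-voom on reads recovered from the FPKM, 0 copies and 8 genes (0.0682%) passed. Groups did not overlap for 30 copies, 24 higher and 6 lower in KO, or 16.6% against 15.2% of all genes (8.24% higher and 6.99% lower). The totals were thus near those of all genes, while the splits by direction leaned more to higher in KO. By value 107 tested copies were higher and 74 lower in KO, or 59.1% higher against 50.2% of all tested genes. Copies of 1 parent are not independent, and the cause of this lean was not tested. The median log2 change of the tested copies was 0.03, with quartiles of -0.05 and 0.12, against 0.00 over all tested genes with quartiles of -0.26 and 0.23. The other 41 copies, with means of 0.0738 to 0.918 FPKM, were too low to be tested.

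Of 96 parents tested 0 passed, 2 (2.08%) had an unadjusted p under 0.05 and the median log2 change was 0.02. Of 1022 other annotated pseudogenes tested, 3 passed, all higher in KO, and 101 (9.88%) had an unadjusted p under 0.05, with a median log2 change of 0.08. The 215 copies matched to an annotated gene together took 7.81%, 7.44% and 7.61% of the reads behind the FPKM in KO libraries 1 to 3, against 7.61%, 7.43% and 7.40% in WT libraries 1 to 3 (exact two-sided permutation p = 0.3, where 0.1 is the smallest that 3 against 3 allow). The parents took 1.58%, 1.62% and 1.62% in KO and 1.59%, 1.55% and 1.62% in WT (exact p = 0.6).

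The reads behind the FPKM numbered 18963366 to 25709663 in KO and 18059339 to 18909199 in WT. The 9 LT-HSC marker genes summed to 285 to 336 FPKM in KO and 363 to 430 FPKM in WT, without overlap, with 0 of 9 passing the test. Summed levels of other blood cells' genes lay apart between the groups as well. All 4 of 4 eosinophil genes passed and were higher in KO (161 to 205 against 0.116 to 1.02 FPKM summed). Of the 4 tested erythroid genes, 3 passed and were higher in KO (381 to 407 against 91.6 to 121 FPKM summed). The B cell genes summed to 41.1 to 64.4 FPKM in KO and 790 to 914 FPKM in WT, with 1 of 4 tested passing. The T and NK genes summed to 308 to 322 FPKM in KO and 186 to 231 in WT with 0 of 3 passing, the granulocyte genes to 3146 to 3581 and 2318 to 2489 with 1 of 5 passing, and the monocyte and dendritic genes to 149 to 179 and 71.4 to 94.5 with 2 of 3 passing. Cd3e and Csf1r were not used here, and no marker in the table was at 0 in all libraries. The part of such cells in the values of the copies was not tested.

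Cd63-ps, the 1 copy of Cd63, a tetraspanin of late endosomes and secretory vesicles, had the smallest p of all copies. It lies on chromosome 18 (50134726 to 50135600, plus strand, GRCm38), in an intron of Hsd17b4, whose log2 change was -0.04. It stood at 587, 548 and 574 FPKM in KO, against 727, 704 and 725 FPKM in WT. All 3 KO libraries lay below all 3 WT libraries, with a log2 change of -0.33 ± 0.06 (SE), and the limma adjusted p was 0.116. Cd63 itself stood at 7.49, 6.24 and 4.08 FPKM in KO and 5.91, 6.25 and 4.96 FPKM in WT, which overlap, and the difference of the log2 ratio of copy to parent was -0.36 with an exact permutation p of 0.3.

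Rps15a-ps2 stood at 47.8, 44.95 and 47.7 FPKM in KO, against 29.7, 29.9 and 19.5 FPKM in WT. The groups did not overlap, at 46.8 ± 1.61 FPKM in KO and 26.4 ± 5.95 FPKM in WT (SD, n = 3 each), and the log2 change of 0.83 ± 0.19 (SE) had a limma adjusted p of 0.184. The parent Rps15a was also high in KO by value, at 2.19, 1.62 and 1.91 FPKM against 0.574, 1.20 and 0.582 FPKM in WT, without overlap and with a log2 change of 0.72 (limma adjusted p = 0.574). The other tested copies of Rps15a did not share this. Rps15a-ps7 stood at 1163, 1198 and 1210.5 FPKM in KO and 1176, 1276 and 1226 FPKM in WT, a log2 change of -0.04, and Rps15a-ps5 and Rps15a-ps3 had log2 changes of -0.02 and -0.10. Copies and parent together, as CPM of the recovered reads, came to 888 ± 27.9 in KO and 895 ± 45.5 in WT (SD, n = 3 each; exact permutation p = 0.9).

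**Figure D3:**
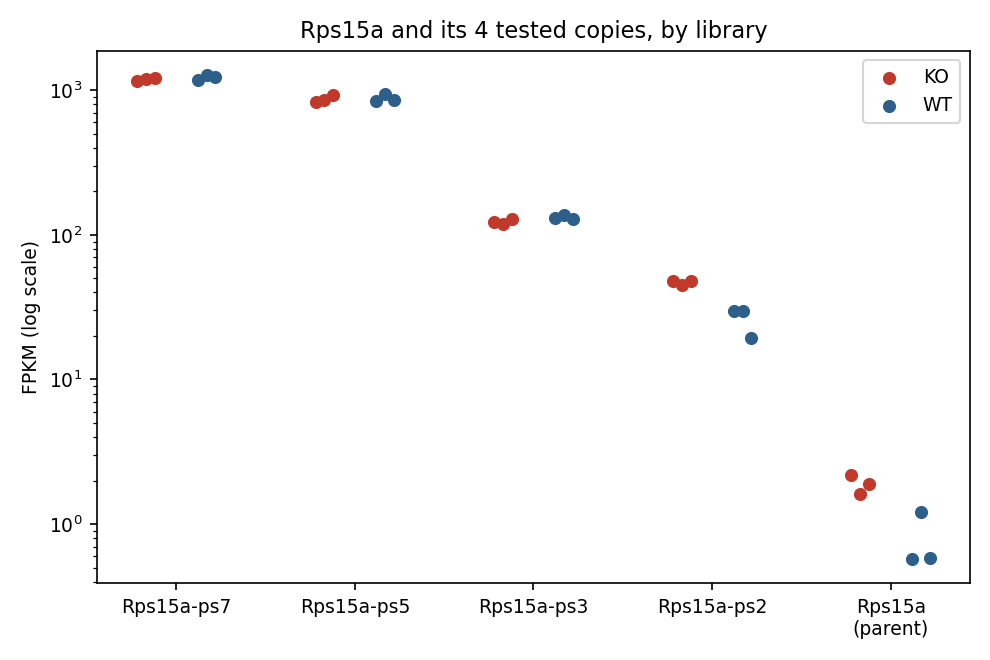
FPKM of Rps15a and its 4 tested copies in every library on a log scale, with the 3 KO libraries in red at the left and the 3 WT libraries in blue at the right of each gene. Rps15a-ps2 lies between 44.95 and 47.8 FPKM in KO and between 19.5 and 29.9 FPKM in WT, whereas the higher copies Rps15a-ps7 and Rps15a-ps5 overlap between the groups.

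Gmfg-ps, the copy of the gene for glia maturation factor gamma, an actin regulator of blood cells, stood at 684, 681 and 702 FPKM in KO, against 416, 558 and 559.9 FPKM in WT. The KO libraries lay above all WT libraries, with a log2 change of 0.44 ± 0.11 (SE) and a limma adjusted p of 0.228. Gmfg overlapped between the groups, at 16.1, 18.3 and 16.2 FPKM in KO and 18.01, 15.8 and 19.2 FPKM in WT. The log2 ratio of copy to parent was 0.51 higher in KO without overlap, for which the exact p is always 0.1, the smallest possible. Psma5-ps, the copy of the gene for proteasome subunit alpha 5, stood at 245, 285 and 271 FPKM in KO and 201, 206 and 212 FPKM in WT. These groups did not overlap either, and the log2 change was 0.37 ± 0.09 (limma adjusted p = 0.208), while Psma5 had a log2 change of 0.15 and overlapping groups.

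Ccnb1-ps, the copy of the cyclin B1 gene, which drives entry into mitosis, stood at 87.3, 81.9 and 88.6 FPKM in KO and 72.8, 65.4 and 49.3 FPKM in WT. The groups did not overlap and the limma adjusted p was 0.390. Ccnb1 stood at 13.4, 15.8 and 17.3 FPKM in KO and 18.4, 15.5 and 14.3 FPKM in WT, and the log2 ratio of copy to parent was 0.52 higher in KO without overlap (exact p = 0.1). The class of the respiratory chain and ATP synthase held 2 copies, and the groups of neither overlapped, as in 15.2% of all tested genes (8.24% higher in KO). Ndufa12-ps, named after a complex I subunit, averaged 373 ± 47.5 FPKM in KO and 287 ± 28.2 FPKM in WT. Atp5c1-ps, named after the gamma subunit of ATP synthase, averaged 262 ± 16.0 FPKM in KO and 211 ± 24.7 FPKM in WT (SD, n = 3 each). Their limma adjusted p were 0.340 and 0.388, and the log2 changes of the parents were 0.24 and 0.20.

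Mnd1-ps, named after a gene of meiotic recombination, was low and had the largest log2 change of the 9 copies of small p plotted by library. It stood at 8.42, 12.8 and 7.85 FPKM in KO and 4.93, 4.67 and 3.08 FPKM in WT, a log2 change of 1.02 ± 0.30 (SE) with a limma adjusted p of 0.313. The parent Mnd1 was also higher in KO by value, at 4.31, 3.92 and 4.45 FPKM against 1.27, 3.75 and 3.57 FPKM in WT, without overlap. Its log2 change was 0.51 (limma adjusted p = 0.713), and 31.6% of Mnd1-ps aligned to the Mnd1 mRNA. Mnd1-ps lies on the opposite strand in an intron of Fhit, which stood at 1.28, 1.20 and 0.998 FPKM in KO and 3.57, 5.57 and 5.04 FPKM in WT. Host and copy thus lay in opposite directions by value (limma adjusted p = 0.180 for Fhit). Rpl27-ps3, identical to the mRNA of Rpl27, a large-subunit protein gene, averaged 2221 ± 93.3 FPKM in KO and 1941 ± 161 FPKM in WT (SD, n = 3 each), with a limma adjusted p of 0.404.

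**Figure D4:**
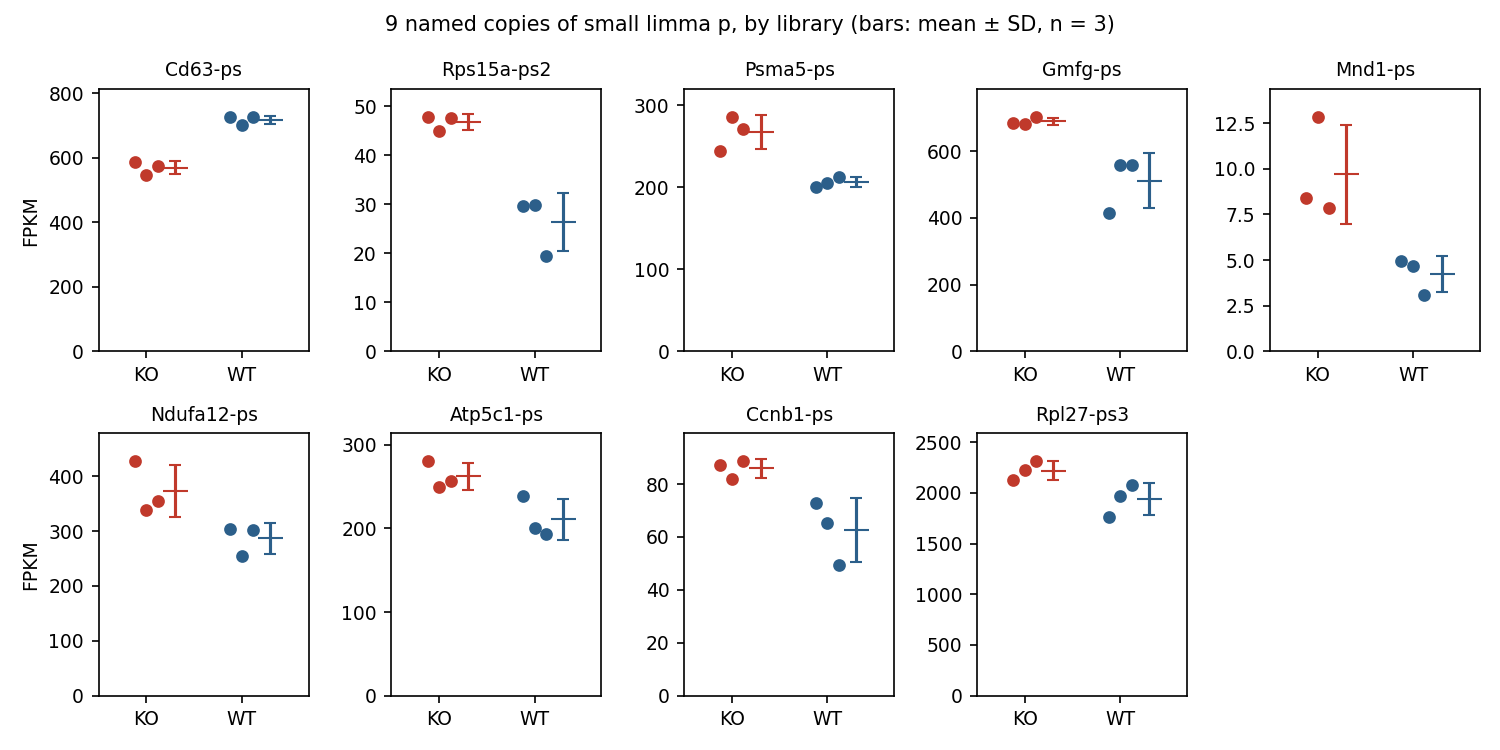
FPKM in every library of 9 named copies of small p, with KO in red left of WT in blue, and the mean ± SD (n = 3) beside the points. Cd63-ps is lower in all 3 KO libraries and the other 8 are higher in all 3, and none of the 9 passed the adjusted threshold.

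Copies and parents were also compared with each other over the libraries. The log2 ratio of copy to parent did not overlap between the groups for 21 of the 181 tested copies (11.6%), 9 higher and 12 lower in KO. For the FPKM of single genes the share without overlap was 15.2%, which is another measure. No share was computed for ratios of other gene pairs, so the count is no result about the copies. The largest differences were of low copies or low parents. Rps2-ps9 stood at 0.134, 0.122 and 0.0553 FPKM in KO and 0.255, 3.59 and 7.49 FPKM in WT, so 2 WT libraries set its log2 ratio difference of -1.69. Rps12-ps19 stood at 0.194, 0.527 and 7.56 FPKM in KO and 0.138, 0 and 0.264 FPKM in WT, and 1 KO library set its difference of 1.34. The differences for Rps15a-ps3, Rps15a-ps7 and Rps15a-ps5, of -0.81, -0.76 and -0.74, share 1 parent with a mean of 1.35 FPKM. These 5 were picked for ratios without overlap, which fixes the exact p at 0.1, the smallest possible, so that p adds nothing. Rps2-ps9 and Rps12-ps19 reached the mean of 1 FPKM needed for testing only through the group where they were higher.

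**Figure D5:**
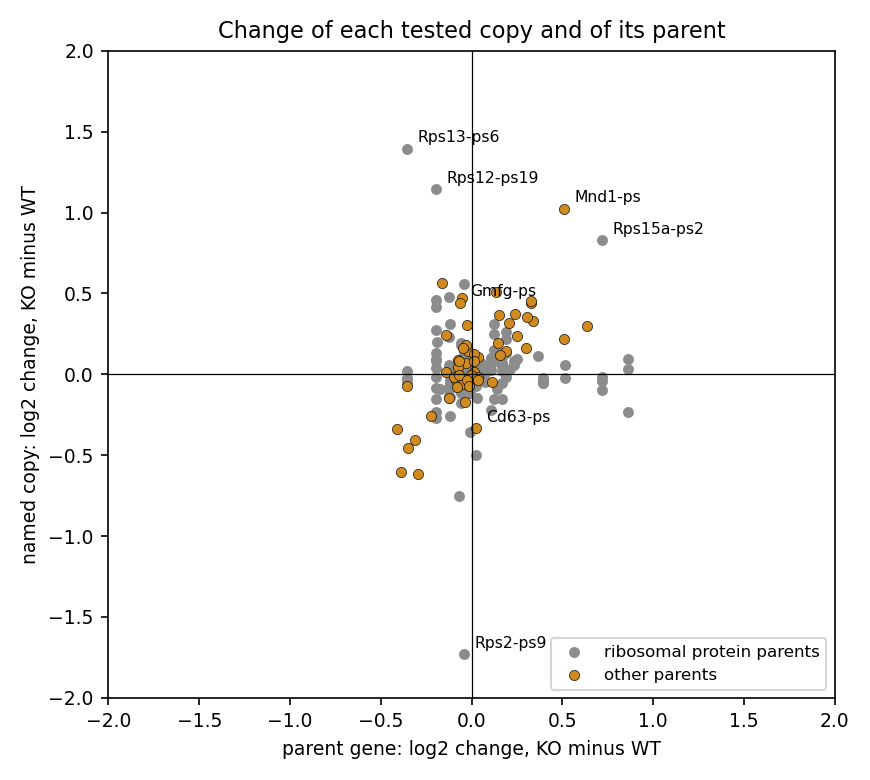
Log2 change, KO minus WT, of 180 tested copies on the vertical axis and of their parents on the horizontal axis, with grey for ribosomal protein parents and orange for others. Most points lie near 0 on both axes, and Rps2-ps9 at -1.73, Rps13-ps6 at 1.40 and Rps12-ps19 at 1.15 stand farthest out.

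Across the 180 pairs with both tested the Spearman correlation of the log2 changes was 0.25, with the same sign in 104; pairs share libraries, and copies of 1 parent share its value. Identity to the parent had a correlation of -0.06 with the log2 change of the 175 copies that were tested and aligned. By class, 5 of 126 tested ribosomal protein copies were higher and 1 lower at an unadjusted p under 0.05, with a median log2 change of 0.03. Over all tested genes 4.87% were higher and 4.33% lower by the same rule, so the ribosomal counts do not exceed the background. Among enzymes and chaperones 2 of 5 were higher at that p, both copies of the 1 parent Gapdh, a glycolytic enzyme, and thus not independent cases. Gapdh-ps15, on chromosome Y, stood at 32.9, 31.3 and 31.6 FPKM in KO and 22.3, 24.4 and 23.2 FPKM in WT, without overlap and with a limma adjusted p of 0.409. Actr3-ps, named after a subunit of the actin-nucleating Arp2/3 complex, and Rbm6-ps1, named after a splicing regulator, had the smallest p of their classes and overlapped between KO and WT, with means of 148 and 25.96 FPKM in KO and 138 and 24.7 FPKM in WT.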

How the data were processed

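The authors deposited 1 table of FPKM (fragments scaled to gene length and library size) per gene symbol for 6 libraries. Per the submitters' processing notes the tools were fastp, Bowtie2 and featureCounts and the build was mm10. Groups and replicate numbers came from the sample titles. The copies, gene lists and rules were chosen with earlier results of these data known. Symbols were matched to GENCODE M21 for 14852 genes (99.1%). Copies were aligned to parent transcripts with blastn 2.17.0 (e-value 1e-05). Testing took the genes averaging 1 FPKM or more and was done with limma 3.58.1 (R 4.3.3) on log2(FPKM + 1), which understates changes of low genes, with a mean-variance trend and Benjamini-Hochberg adjustment over 11837 genes. Ratios of copy to parent used the same pseudocount of 1 and an exact two-sided permutation test. FPKM times exon length came out whole within 0.05 for 98.0% of values below 100 reads, which gave the reads; these carry no molecular identifiers and amplified cDNA repeats molecules. On simulated tables of the 11837 genes, 20.1% of changes of log2 1 and 61.1% of log2 2 were recovered for KO against WT. Named copies were the 10 of smallest p, the 6 of highest mean FPKM, the 5 largest differences of non-overlapping ratios, the 3 highest ratios to the parent, and the smallest p of each class with 3 or more tested, with 1 copy that this rule takes not reported here; Gapdh-ps16, Rps13-ps6, Rps12-ps3, Rps15a-ps8 and others were named after their values were seen.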

Additional observations from a re-analysis of the deposited data

How the results depend on the processing

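Of the 181 tested copies, 0 passed the adjusted threshold in the main analysis and in every alternative but quantile scaling, where Cd63-ps passed (1 copy, limma adjusted p = 0.0271). Its adjusted p ran from 0.0608 to 0.619 in the others, all with lower values in KO. Over all genes 27 passed, against 8 with limma-voom, 8 with no variance trend and 11 with the replicate number as a block; leaving out 1 library in turn gave 11 to 19 genes and 0 copies. Pairing of the samples by number was not shown. Same-numbered KO and WT libraries had correlations of 0.0235, 0.0071 and 0.0037, and KO libraries 2 and 3 did not correlate best with their own number. The values were centred within groups of 3 libraries, so such small correlations cannot exclude a pairing. Under the block 0 copies passed. The median log2 change of the copies, 0.03, was -0.000796 after rescaling to TPM, which moved the median of all genes to -0.03, 0.00646 when corrected for exon length and GC content, 0.00151 with quantile scaling, and 0.0216 to 0.0470 with 1 library left out. The count of ratios without overlap, 21, was 32 to 48 with 1 library left out, where fewer samples make overlap less likely. Rpl3-ps1 changed sign with limma-voom (0.00662) and quantile scaling (0.0150), and the ratio of Rps15a-ps2 with a pseudocount of 0.1 (-0.39) and TPM (-0.0516). With 1 library left out the log2 change ran from -0.0337 to 0.0402 for Rpl3-ps1, -0.0611 to 0.0333 for Rps15a-ps5, -0.0761 to 0.171 for Rbm6-ps1 and -0.101 to 0.0123 for Rpl13-ps6. The log2 ratio difference ran from -0.00494 to 0.290 for Rps15a-ps2, -0.141 to 0.372 for Rps18-ps3, -0.260 to 0.0316 for Rpl3-ps1, -0.586 to 0.139 for Rps26-ps1, -0.136 to 0.0497 for Rps7-ps3 and -0.184 to 0.265 for Gapdh-ps15. The cause of these differences was not tested.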

Other observations

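A further 45 symbols carry the same ending while the gene of the stem has no row in the table used here. Of these 31 were tested and 0 passed the limma adjusted threshold, with 3 at an unadjusted p under 0.05, a share near the 9.2% of all tested genes. Rpl23a-ps3 was the highest of them, with a mean of 1949.8 FPKM and a log2 change of 0.01. Olfr1543-ps1, named after an olfactory receptor gene, had the smallest p. It stood at 2.66, 0.697 and 3.44 FPKM in KO, against 0, 0.120 and 0 FPKM in WT, with a limma adjusted p of 0.309. Its mean reached the 1 FPKM needed for testing only through the KO libraries.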
